A study of Mus musculus with 18 samples.

Results

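The alpha-arrestins are a small family of intracellular adaptor proteins. Txnip, Arrdc1, Arrdc2, Arrdc3 and Arrdc4 were chosen by name, as 5 of the 55401 gene identifiers measured, with the RECTAS and tissue differences of these libraries already seen. The family was thereby selected on values that include both the RECTAS and the tissue comparisons, so both are given for it as a description. No p-value of a member is printed, and nothing is read from the counts of members past a threshold. RNA-seq was run on colon, lung and liver of 7-week-old C57BL/6N mice, with 3 libraries in each of 6 groups (18 in all). The RECTAS groups received 100 mg/kg of RECTAS, a small molecule that acts on pre-mRNA splicing, in 0.5% CMC (carboxymethyl cellulose), and the vehicle groups received 0.5% CMC without it. Both were dosed again after 4 h, and tissue was taken 8 h after the first dose. No genetic change is named for any group, and the sex of the mice is not stated. It is not stated whether replicate libraries are from different mice, so p-values measure only the spread between these libraries. Nor is it stated whether the 3 tissues came from the same mice, and the main fits treated all libraries as independent.

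Alpha-arrestins carry the arrestin fold and, in most members, short proline-rich PY motifs in the C-terminal tail. The PY motifs bind WW domains of NEDD4-family ubiquitin ligases, and the adaptor brings the ligase to a membrane protein that is then ubiquitylated and taken into the cell. TXNIP in addition binds thioredoxin and lowers glucose uptake through the GLUT1 and GLUT4 transporters, and ARRDC4 is its closest relative in that role. Txnip and Arrdc4 are textbook target genes of MondoA and ChREBP, transcription factors that sense glucose phosphates and bind spaced E-boxes together with their partner MLX. ARRDC1 drives budding of vesicles from the plasma membrane with TSG101, and ARRDC3 has been linked to integrin beta-4 and body fat. ARRDC2 is the least studied of the 5.

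The bases upstream of Txnip, Arrdc4 and Arrdc2 are shown because the first has the pair of E-boxes, the second is its closest relative in glucose handling, and the third is the member that was higher with RECTAS in liver. Each runs 5′ to 3′ on the gene's own strand and ends just before the RefSeq start site (GRCm38.p6). Capitals mark matches on either strand to 4 searched motifs, which are the E-box CACGTG, the spaced E-box pair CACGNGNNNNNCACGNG, the glucocorticoid response half-site TGTTCT and the CCAAT box CCAAT. The spaced pair and the CCAAT box were added after the sequences had been read. Either E-box of the pair can also match CACGTG, but no 2 matches overlapped in these windows.
Txnip, chr3:96557707-96557956, plus strand: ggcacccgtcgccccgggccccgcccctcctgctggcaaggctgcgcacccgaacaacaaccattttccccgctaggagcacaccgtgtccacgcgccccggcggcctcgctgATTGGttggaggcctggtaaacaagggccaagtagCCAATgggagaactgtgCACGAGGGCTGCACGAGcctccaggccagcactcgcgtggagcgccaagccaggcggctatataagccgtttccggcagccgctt
Arrdc4, chr7:68749239-68749488, minus strand: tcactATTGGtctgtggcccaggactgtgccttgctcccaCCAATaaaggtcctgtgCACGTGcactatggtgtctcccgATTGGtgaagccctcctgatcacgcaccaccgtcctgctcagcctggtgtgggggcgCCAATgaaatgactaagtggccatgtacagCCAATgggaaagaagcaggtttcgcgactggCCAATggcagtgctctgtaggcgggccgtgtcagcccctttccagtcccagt
Arrdc2, chr8:70839721-70839970, minus strand: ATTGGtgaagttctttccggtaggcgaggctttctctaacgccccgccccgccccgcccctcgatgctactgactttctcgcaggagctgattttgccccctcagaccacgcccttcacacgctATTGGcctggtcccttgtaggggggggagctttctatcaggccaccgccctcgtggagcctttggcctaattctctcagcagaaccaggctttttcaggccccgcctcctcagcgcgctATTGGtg

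The Txnip window held the spaced pair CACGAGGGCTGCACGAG from -85 to -69 before the start site, a motif in 15 of 32851 RefSeq promoter windows of this length (0.0457%). The Arrdc4 window had no match to that pair but held the palindromic E-box CACGTG from -193 to -188, which 6.02% of windows hold. CCAAT boxes, the textbook binding sequence of NF-Y, matched 6 times in Arrdc4, and 19 windows (0.0578%) had 6 or more. Arrdc2 had 3 CCAAT matches (2.79% of windows had 3 or more) and Txnip had 2 (10.1% had 2 or more). Arrdc3 had 1 and Arrdc1 had 0, against 33.8% of windows with any. The glucocorticoid half-site, held by 16.1% of windows, had no match in the windows of the 5 members. All 5 members had a promoter entry, and Arrdc3 had 3 annotated starts. GC content of the window was 76.0% for the first start of Arrdc3, 66.8% for Txnip, 62.0% for Arrdc1, 60.4% for Arrdc2 and 58.0% for Arrdc4, against a median of 52.4%. These matches describe letters in the windows and say nothing on which factor was bound.

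**Figure D1:**
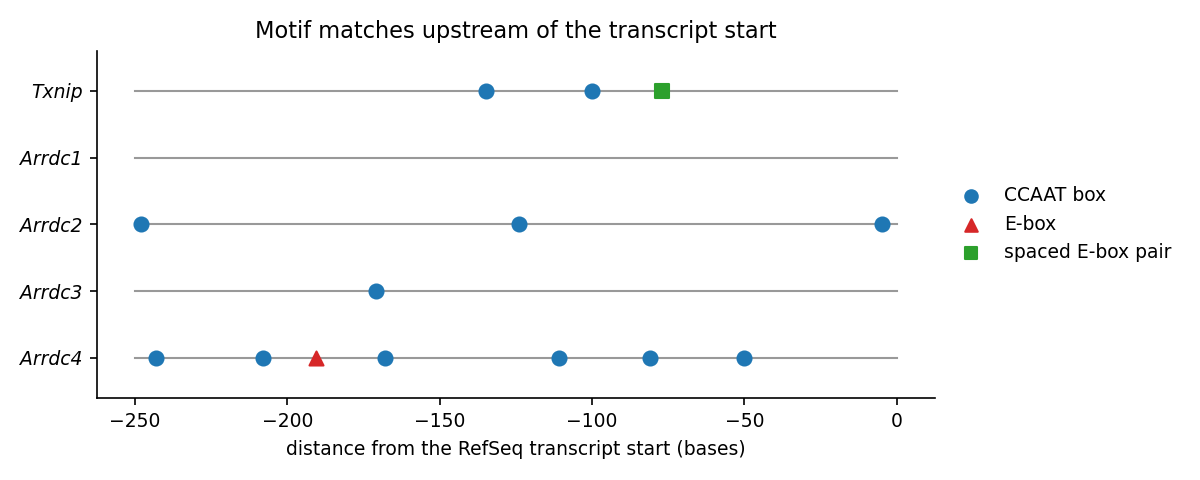
Positions of motif matches in the 250 bases before the start site of each member (x axis, bases from the start site; 1 row per member). The spaced E-box pair is in the Txnip row alone, and the Arrdc4 row has 6 CCAAT boxes.

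All 5 genes are protein-coding in the GRCm38 annotation, and the longest coding transcript of each has 8 exons. Txnip (ENSMUSG00000038393) lies at chr3:96557957-96561883 on the plus strand and Arrdc1 (ENSMUSG00000026972) at chr2:24925352-24935252 on the minus strand. Arrdc2 (ENSMUSG00000002910) lies at chr8:70835129-70839720 (minus), Arrdc3 (ENSMUSG00000074794) at chr13:80883384-80896042 (plus) and Arrdc4 (ENSMUSG00000042659) at chr7:68736995-68749241 (minus). The antisense gene Gm15441 spans all of Txnip on the opposite strand and reached at most 3.15 TPM (a transcript level scaled for transcript length and library total). 1700023H06Rik shares 1301 bases with Arrdc3 on the opposite strand and reached at most 0.42 TPM. The strand setting of the counting is not given in the sources used here, so reads of these overlapping pairs may not have been told apart.

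All 5 members were above 1 TPM in each of the 18 libraries and so passed the filter on low values of every main fit. TPM keeps no record of sequencing depth, which is unknown here, and the files showed 23308 to 23874 genes above 0 in colon libraries, 24084 to 25227 in lung and 19836 to 20502 in liver. Marker genes matched the labelled tissues. Summed hepatocyte markers were 109873 to 131807 TPM in liver and 55.3 to 92.0 TPM in colon, and summed alveolar type 2 markers were 36356 to 45002 TPM in lung. Colonocyte markers summed to 10623 to 30344 TPM in colon, 276 to 319 TPM in lung and 94.2 to 117 TPM in liver. Hepatocyte markers varied within lung, at 32.2, 587 and 1651 TPM in the vehicle libraries and 11.4, 75.3 and 633 TPM with RECTAS, and their part in the lung values was not tested. In whole tissue, fewer cells of a type and less RNA per cell cannot be told apart.

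Txnip was by far the most abundant member in colon and lung. In vehicle colon it stood at 720.8, 740.1 and 729.7 TPM (mean 730.2 ± 9.67, SD, n = 3), rank 169 of 55291 gene symbols by mean. Vehicle lung read 493, 422 and 377 TPM (431 ± 58.3), and vehicle liver 72.2, 79.7 and 72.5 TPM (74.8 ± 4.23, rank 1237). The 3 tissues did not overlap, with colon 1.70-fold above lung and 9.76-fold above liver. In a limma fit of the 9 vehicle libraries, the log2 difference was -3.27 for liver against colon, -2.50 for liver against lung and -0.77 for lung against colon (SE 0.094 each).

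Arrdc1 was high in colon and lung and low in liver. Vehicle libraries read 91.1, 79.6 and 94.9 TPM in colon, 90.7, 103 and 85.2 TPM in lung and 3.71, 3.61 and 3.86 TPM in liver. The colon mean of 88.5 ± 7.98 TPM was 23.8-fold above the liver mean of 3.73 ± 0.126 TPM (log2 difference liver against colon -4.24, SE 0.094). Colon and lung overlapped, with a log2 difference of 0.068 for lung against colon (95% interval -0.15 to 0.28). Liver against lung gave -4.31 (SE 0.094).

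Arrdc4 took the same tissue order as Txnip at lower levels. It read 38, 36.5 and 32.6 TPM in vehicle colon, 19.1, 15.1 and 16.1 TPM in lung and 6.24, 7.83 and 9.65 TPM in liver. Neighbouring tissues did not overlap, with liver 4.51-fold below colon. The log2 differences were -1.05 for lung against colon, -2.06 for liver against colon and -1.01 for liver against lung (SE 0.15 each).

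Arrdc2 was near even between vehicle colon and lung and lower in vehicle liver. It read 15.0, 18.7 and 14.9 TPM in colon, 15.7, 17.8 and 16.8 TPM in lung and 8.04, 9.39 and 8.45 TPM in liver. Colon and lung overlapped (log2 difference 0.052, 95% interval -0.19 to 0.30), and liver lay 1.88-fold below colon (-0.83, SE 0.11) and 1.94-fold below lung (-0.88, SE 0.11).

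Arrdc3 was highest in lung and spread most between libraries of 1 group. Vehicle lung read 60.5, 82.1 and 76.1 TPM and vehicle colon 29.6, 15.4 and 12.9 TPM, with lung 3.78-fold above colon and no overlap (log2 difference 1.94, SE 0.57). Vehicle liver read 77.4, 49.7 and 12.9 TPM (46.6 ± 32.3), which overlapped both other tissues. Liver against colon was 0.998 (95% interval -0.29 to 2.28) and liver against lung -0.94 (95% interval -2.23 to 0.34). Without liver vehicle replicate 3, Arrdc3 was past the threshold for liver against colon, and without liver vehicle replicate 1 it was for liver against lung, which made 5 members called in each case. Most genes are called in these contrasts. In the main fit they were 13353 of 16715 in liver against colon and 14707 in liver against lung, so nothing is read from that count.

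In colon, the summed smooth muscle markers had the same order of libraries as Arrdc3 within vehicle, at 5527, 2085 and 1989 TPM, and within RECTAS, at 3325, 3335 and 1778 TPM. Their part in the Arrdc3 values was not tested.

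Between vehicle tissues, 3 of 5 members had an adjusted p under 0.05 (limma, Benjamini-Hochberg over all genes) in lung against colon, 1 higher and 2 lower, where 75.7% of the 16715 genes passed. In liver, 4 of 5 were lower than in colon, where 63.8% of all genes were called lower, and 4 of 5 were lower than in lung, where 74.5% were. These shares are near the background, and since the tissue differences were in view when the family was chosen, nothing is read from them. The median gene differed by 0.35 in lung against colon, -0.68 in liver against colon and -1.10 in liver against lung on the log2 scale. Relative to that shift, liver against lung was -1.40 for Txnip and -3.21 for Arrdc1, but 0.22 for Arrdc2 and 0.096 for Arrdc4. Relative to it, liver against colon was -2.59 for Txnip, -3.56 for Arrdc1, -1.37 for Arrdc4 and -0.15 for Arrdc2, while Arrdc3 was 1.68. After scaling the libraries by median ratios, Arrdc2 turned to 0.39 and Arrdc4 to 0.25 in liver against lung, Arrdc2 to 0.052 in liver against colon, and Arrdc1 to -0.34 and Arrdc2 to -0.33 in lung against colon. Arrdc3 in liver against lung turned to 0.40 under that scaling, and in liver against colon it was 1.93. Quantile normalisation gave 0.33 for Arrdc2 and 0.22 for Arrdc4 in liver against lung, -0.015 for Arrdc2 in liver against colon and -0.34 for Arrdc2 in lung against colon. It left Arrdc1 in lung against colon at 0.12 and Arrdc3 in liver against lung at -0.36, without the turn of sign. The lower liver levels of Txnip and Arrdc1 kept their direction under every scaling tried.

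**Figure D2:**
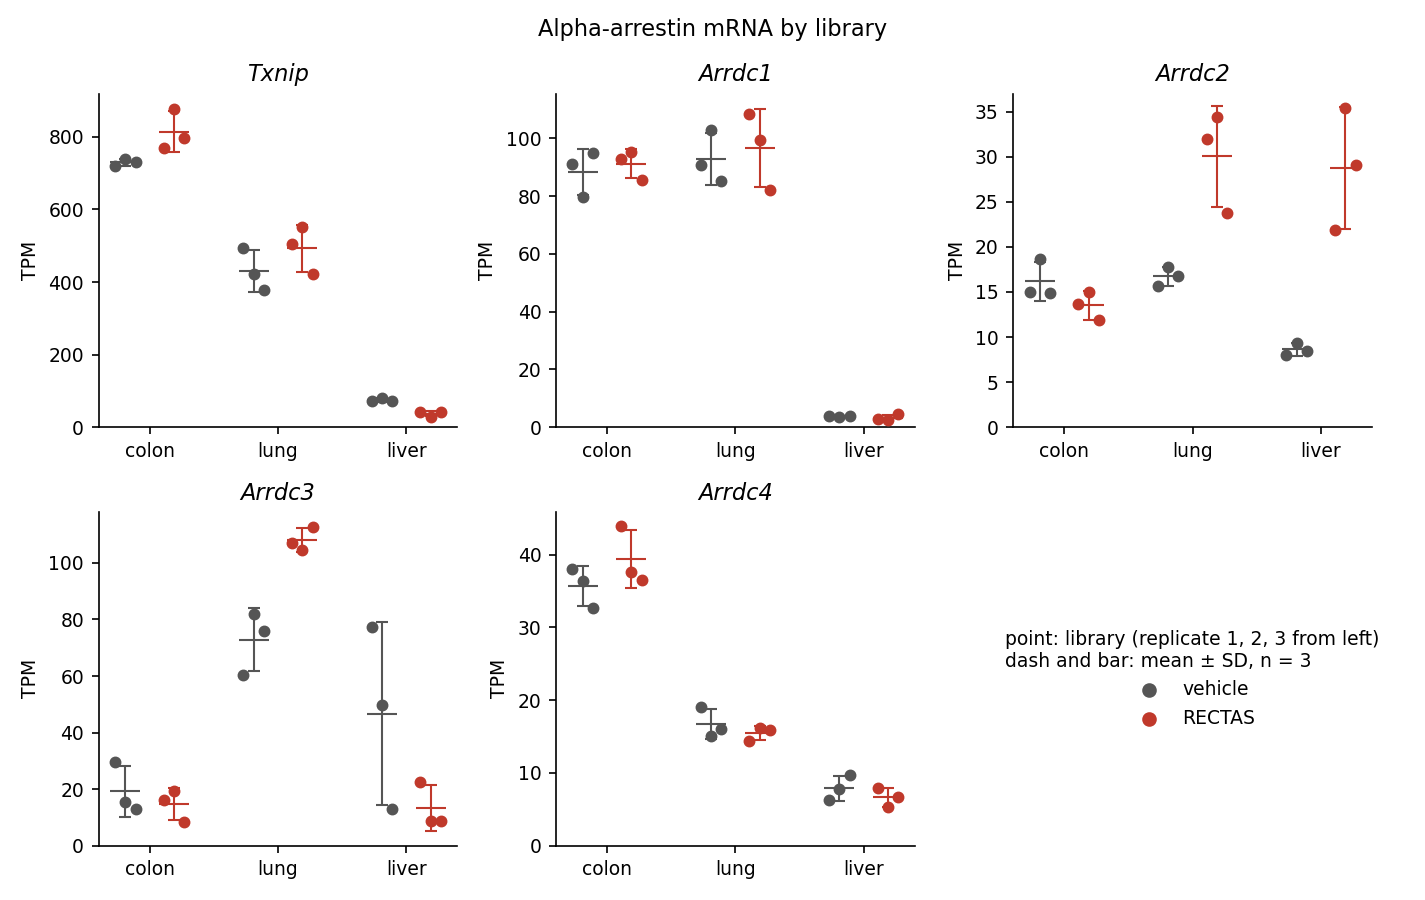
TPM of each member (linear axes from 0, 1 panel per gene) in the 18 libraries, by tissue, with vehicle in grey and RECTAS in red, 1 point per library, and a dash and bar for the mean ± SD (n = 3). Txnip is highest in colon and lowest in liver, and in liver the RECTAS points lie below the vehicle points for Txnip and above them for Arrdc2.

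With RECTAS the members differed in opposite directions in liver. Arrdc2, at 8.04, 9.39 and 8.45 TPM in vehicle liver, read 21.9, 35.4 and 29.1 TPM with RECTAS, so every RECTAS library lay above every vehicle library. The means were 8.63 ± 0.692 and 28.8 ± 6.78 TPM (n = 3 each), 3.34-fold apart, with a log2 difference of 1.61 (SE 0.17). Txnip, at 72.2, 79.7 and 72.5 TPM in vehicle liver, read 41.5, 29.3 and 41.2 TPM with RECTAS, all below the vehicle libraries. Its mean of 37.3 ± 6.92 TPM with RECTAS was 2.004-fold lower (log2 difference -0.9996, SE 0.14), and its rank by mean went from 1237 to 2180. The overlapping Gm15441 read 0.13 to 0.39 TPM in vehicle liver and 0.08 to 0.27 TPM with RECTAS.

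Arrdc3 in liver read 22.6, 8.68 and 8.66 TPM with RECTAS against 77.4, 49.7 and 12.9 TPM in vehicle. The mean was 3.51-fold lower, but the groups overlapped and the log2 difference of -1.55 had an SE of 0.65. The overlapping 1700023H06Rik read 0.42, 0.34 and 0.05 TPM in vehicle liver and 0, 0.04 and 0 TPM with RECTAS. Its part in the Arrdc3 reading was not tested. Arrdc1 (2.96, 2.53 and 4.48 TPM) and Arrdc4 (7.95, 5.27 and 6.74 TPM) overlapped their vehicle libraries, with log2 differences of -0.15 and -0.22. Summed endothelial markers in liver were 60.6 to 76.97 TPM in vehicle and 51.2 to 64.6 TPM with RECTAS, with 7 of 8 lower. Groups did not overlap for 2 of them (18.7% of all liver genes). Lower too were 6 of 8 hepatocyte, 2 of 2 adipocyte, 2 of 3 colonocyte, 3 of 4 smooth muscle, 3 of 5 erythroid and 2 of 3 lymphocyte markers in the fit. The 1 alveolar type 2 marker there was higher. In limma 1 endothelial, 1 hepatocyte and 2 colonocyte markers had an unadjusted p under 0.05 (11.6% of all liver genes). The part of any of these in the liver differences was not tested.

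In lung, Arrdc2 and Arrdc3 were higher with RECTAS. Arrdc2 read 32.0, 34.4 and 23.7 TPM against 15.7, 17.8 and 16.8 TPM in vehicle, a 1.79-fold higher mean (log2 difference 0.79, SE 0.14). Arrdc3 read 107, 105 and 113 TPM against 60.5, 82.1 and 76.1 TPM, a 1.48-fold higher mean (0.57, SE 0.11). Neither gene's groups overlapped. Txnip overlapped, at 505, 552 and 423 TPM with RECTAS against 493, 422 and 377 TPM (1.15-fold). Arrdc1, at 109, 99.6 and 82.1 TPM, and Arrdc4, at 14.4, 16.1 and 15.9 TPM, also overlapped vehicle, with log2 differences of 0.053 and -0.10. Of the alveolar type 2 markers, 8 of 8 were higher in the RECTAS lungs, summing to 41146 to 45002 TPM against 36356 to 39937 TPM. Endothelial markers were higher in 8 of 8, summing to 2010 to 2477 TPM against 1798 to 2102 TPM. Hepatocyte markers were lower in 8 of 8 in the RECTAS lungs, with a median of -1.85 and overlapping groups. Adipocyte markers were higher in 6 of 6 genes in the lung fit, with a median of 0.37. Striated muscle markers were higher in 2 and lower in 4, lymphocyte markers higher in 3 and lower in 5, erythroid markers lower in 5 of 5, and goblet cell markers higher in 2 and lower in 2, and 0 of the marker genes passed the adjusted test in limma. An unadjusted p under 0.05 was reached by 5 of 8 alveolar type 2, 2 of 8 endothelial, 1 of 6 adipocyte and 1 of 8 smooth muscle markers. Of all lung genes, 12.6% reached it. The smooth muscle list was higher in 8 of 8. Summed striated muscle markers were 283, 157 and 350 TPM in vehicle lung and 315, 694 and 91.9 TPM with RECTAS. Within RECTAS lung the striated muscle, smooth muscle, adipocyte, endothelial, goblet cell and colonocyte sums took the library order of Arrdc2. The alveolar type 2, hepatocyte, erythroid and lymphocyte sums did not, and no list did within vehicle lung. The part of any of these in the lung differences was not tested.

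In colon, Txnip was the only member whose groups did not overlap. It read 768, 877 and 796 TPM with RECTAS, a mean of 814 ± 56.6 TPM that was 1.11-fold the vehicle mean (log2 difference 0.15, SE 0.084). Arrdc2 read 13.7, 15.0 and 11.8 TPM (log2 difference -0.24) and Arrdc3 16.2, 19.4 and 8.41 TPM (-0.36, SE 0.37). Arrdc1, at 92.9, 95.2 and 85.8 TPM, and Arrdc4, at 43.9, 37.7 and 36.5 TPM, gave 0.046 and 0.14. Txnip and Arrdc2, whose groups did not overlap in liver, both lay within 1.20-fold of vehicle in colon.

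Across all genes, 0 of 5 members passed an adjusted p of 0.05 for RECTAS against vehicle in any tissue by limma, where 0% of 14282 genes passed in colon, 0.00637% of 15699 in lung and 0.0167% of 11944 in liver. At an unadjusted p under 0.05 the members numbered 0 in colon (1.62% of all genes), 2 in lung (12.6%) and 3 in liver (11.6%). Groups did not overlap for 1 member in colon (5.44% of all genes), 2 in lung (19.3%) and 2 in liver (18.7%). Since the family was chosen with these contrasts in view, nothing is read from these counts. The median member differed by 0.046 in colon, 0.20 in lung and -0.22 in liver, against 0.018, 0.058 and -0.038 for all genes. In liver, Arrdc2 passed with a filter of 5 TPM, where 7 genes passed in all, against 2 in the main fit. Arrdc2 and Txnip both passed in 1 fit of all 18 libraries, where 94 genes passed.

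**Figure D3:**
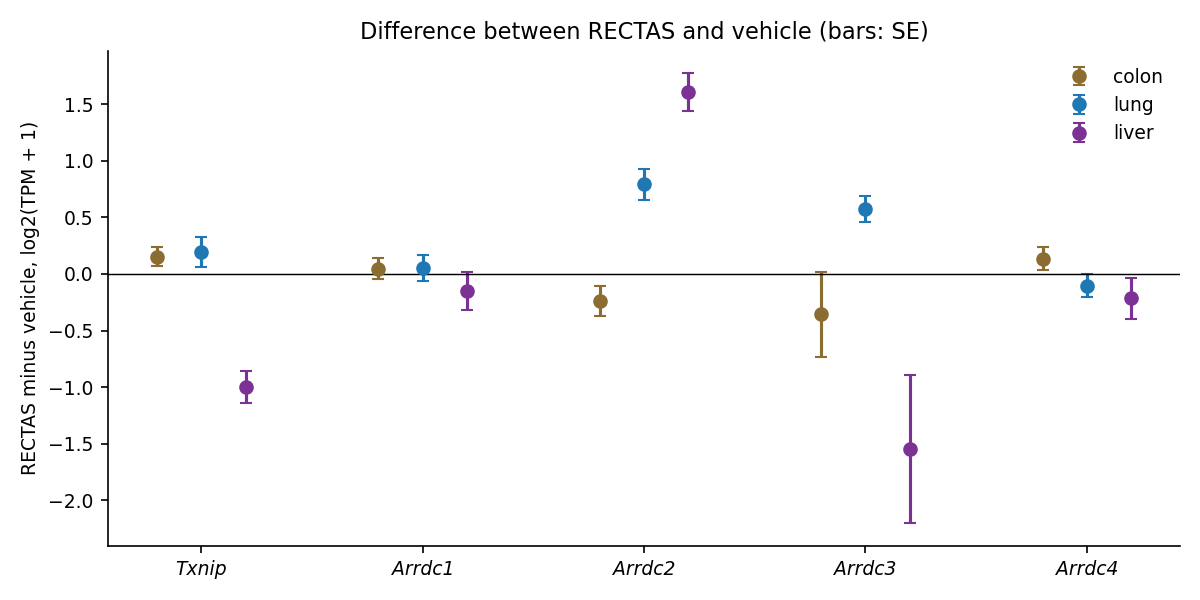
Difference between RECTAS and vehicle for each member in colon, lung and liver, in log2(TPM + 1) (points, with the SE as bars, 3 against 3 libraries). In liver Arrdc2 is at 1.61 and Txnip at -0.9996, while in colon every member lies between -0.36 and 0.15.

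The RECTAS differences were also compared between tissues. For Txnip the liver difference was lower than the colon difference by -1.15 (SE 0.18) and lower than the lung difference by -1.20 (SE 0.18). For Arrdc2 the liver difference exceeded the colon difference by 1.85 (SE 0.23), the lung difference exceeded the colon difference by 1.03 (SE 0.23), and liver exceeded lung by 0.81 (SE 0.23). Arrdc3 in liver lay below lung by -2.12 (SE 0.73). In limma's interaction test over 18 libraries, 2 of 5 members (Txnip and Arrdc2) passed in liver against colon, where 0.0285% of 17537 genes passed. Txnip, 1 of 5, passed in liver against lung (0.0228%), and 0 of 5 passed in lung against colon (0.0114%), where Arrdc2 was the 1 member with an unadjusted p under 0.05 (3.22% of all genes). These contrasts use the differences that were in view when the family was chosen, so the counts are fixed in part by that choice and nothing is read from them.

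The interaction calls were close to the threshold. In liver against colon, 1 member (Arrdc2) passed without colon vehicle replicate 1 or 3, colon RECTAS replicate 2 or 3, or liver vehicle replicate 1, 2 or 3, and 0 passed without colon vehicle replicate 2, colon RECTAS replicate 1 or liver RECTAS replicate 3. In liver against lung, 0 passed without lung vehicle replicate 2 or 3, lung RECTAS replicate 1, 2 or 3, liver vehicle replicate 2 or 3, or liver RECTAS replicate 1 or 3. The values moved less than the calls, with Txnip between -1.24 and -0.99 in liver against colon and between -1.30 and -1.04 in liver against lung when 1 library was left out, and Arrdc2 between 1.69 and 2.02 in liver against colon.

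With RECTAS, Arrdc2 was lowest in colon (13.5 ± 1.60 TPM), 2.13-fold below liver without overlap, while liver and lung (30.04 ± 5.60 TPM) overlapped. In vehicle it was lowest in liver on the TPM scale, an order that median ratio scaling and quantile normalisation removed for liver against colon (0.052 and -0.015). Arrdc3 with RECTAS was 8.12-fold higher in lung (108 ± 4.17 TPM) than in liver, and liver and colon overlapped, as they did in vehicle. Txnip, Arrdc1 and Arrdc4 had the same order of means under both treatments, and Txnip was 13.2-fold higher in lung than in liver with RECTAS.

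Summed over the family, TPM was 889.9 ± 4.84 in vehicle colon and 973 ± 62.2 with RECTAS, 629.9 ± 54.4 and 744 ± 77.2 in lung, and 142 ± 30.95 and 89.4 ± 7.83 in liver (n = 3 each). Txnip made up 82.1% of the family in vehicle colon and 68.2% in vehicle lung, with 83.7% and 66.2% under RECTAS. In liver its share was 54.6% ± 12.3 in vehicle and 41.5% ± 4.91 with RECTAS. Arrdc2 made up 6.31% ± 1.53 of the family in vehicle liver and 32.8% ± 10.5 with RECTAS, where its lowest RECTAS library (22.6%) lay above its highest vehicle library (7.87%). Arrdc3 made up 30.4% ± 17.2 and 14.5% ± 7.61 in liver.

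**Figure D4:**
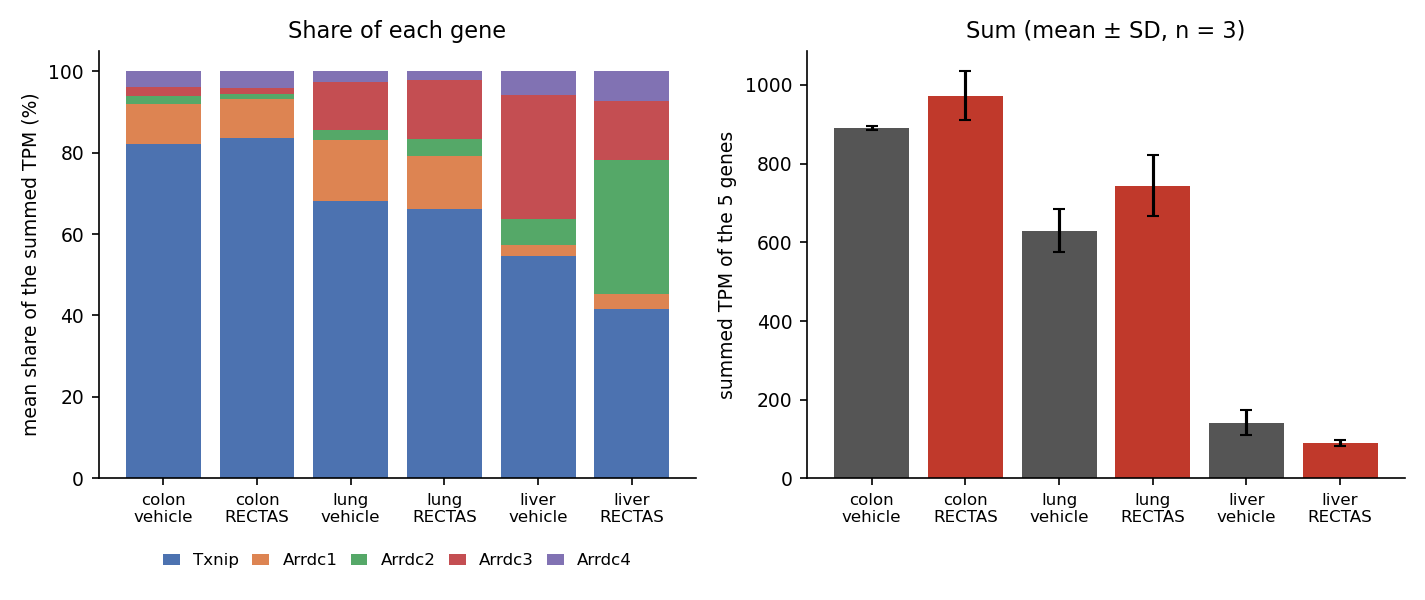
Left, mean share (%) of each member in the summed TPM of the family in each of the 6 groups, stacked to the whole; right, the summed TPM (mean ± SD, n = 3). The Arrdc2 part is 6.31% in vehicle liver and 32.8% in RECTAS liver.

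In colon the pathway lists, from the NEDD4 ligases to the glucocorticoid response genes, had medians between 0.024 and 0.055 against 0.018 for all genes. Of the 5 other arrestins, Arrb1 and Arrb2, the ubiquitous beta-arrestins, were in every fit, and Arrdc5 and the retinal arrestins Sag and Arr3 were below the filter. Arrb1 stood at 3.84, 4.06 and 4.57 TPM in vehicle liver and 2.39, 3.04 and 3.81 TPM with RECTAS, without overlap. Like Arrdc1 it was low in liver and reached 90.4 ± 7.11 TPM in vehicle lung.

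The NEDD4-family ubiquitin ligases, the enzymes that alpha-arrestins recruit, had 8 of 9 genes in the lung fit, 8 higher and 0 lower with RECTAS. None (0) passed the adjusted test by limma, 3 had an unadjusted p under 0.05 (12.6% of all lung genes), and the list median was 0.15 against 0.058 for all genes. Smurf2 read 40.3 to 42.2 TPM in vehicle lung and 48.8 to 54.8 TPM with RECTAS (log2 difference 0.32), and Nedd4l 48.0 to 52.0 TPM and 56.0 to 58.1 TPM (0.20). Smurf1 read 17.8 to 18.6 TPM and 18.8 to 23.5 TPM (0.24). In liver 7 of 7 were lower, with a median of -0.082 against -0.038 and Smurf1 at 5.01 to 5.79 TPM against 4.17 to 4.75 TPM.

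Described cargo and partners of the family were higher in 10 of 11 genes in lung, 5 without overlap and 0 passing the adjusted test in limma (3 unadjusted), where 19.3% of all lung genes were without overlap and 12.6% unadjusted. Notch1, a receptor of cell-cell signalling, had lung means of 25.0 TPM in vehicle and 34.1 TPM with RECTAS (1.36-fold). Ndfip1, an activator of NEDD4 ligases, was at 139 ± 0.335 and 154 ± 8.05 TPM. In liver, Slc2a1, which encodes GLUT1, read 5.95, 3.60 and 3.66 TPM in vehicle and 6.03, 6.54 and 7.74 TPM with RECTAS (log2 difference 0.55), and Ndfip1 had means of 171 and 154 TPM. The cargo list split evenly in liver, 4 higher and 4 lower of 8.

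In the thioredoxin system, to which TXNIP binds, 10 of 13 genes were higher and 3 lower in liver, with 0 passing the adjusted test in limma (2 unadjusted, against 11.6% of all liver genes) and a median of 0.049 against -0.038. Srxn1, the sulfiredoxin that repairs oxidised peroxiredoxins, read 13.8, 17.1 and 17.9 TPM in vehicle liver and 34.9, 31.4 and 32.4 TPM with RECTAS (2.03-fold). Txnrd1, the cytosolic thioredoxin reductase, read 39.7, 48.2 and 49.3 TPM and 64.0, 62.1 and 70.1 TPM (1.43-fold), while Prdx2, a peroxiredoxin, had means of 87.3 and 77.1 TPM. In colon Txnrd1 was at 107 to 119 TPM and 128 to 138 TPM. In lung 7 genes were higher and 7 lower, with a median of 0.0053, and Txnrd3 had means of 10.8 and 12.2 TPM.

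Factors and target genes of MondoA and ChREBP, the list that Txnip and Arrdc4 would join, were higher in 16 of 19 genes in liver, with a median of 0.29 against -0.038, 0 passing the adjusted test in limma and 1 with an unadjusted p under 0.05 (11.6% of all liver genes). Groups did not overlap in liver for 1 gene of this list, where 18.7% of all liver genes did not overlap. It was Mlx, the shared partner of both factors, at 27.1, 31.7 and 26.7 TPM in vehicle and 33.0, 40.6 and 36.1 TPM with RECTAS. In lung 10 were higher and 8 lower, with a median of 0.046 against 0.058 for all genes. Groups did not overlap for 4 higher genes and 1 lower gene there (19.3% of all lung genes did not overlap). None (0) passed the adjusted test in limma, and 4 had an unadjusted p under 0.05 (12.6% of all lung genes). Hk2, a hexokinase, had means of 10.3 and 18.1 TPM there (1.77-fold), Fasn, the fatty acid synthase, 111 and 142 TPM, and Mlxip, which encodes MondoA, 25.7 and 31.9 TPM. In colon Khk, the fructose kinase ketohexokinase, had means of 20.7 and 16.7 TPM, without overlap, in a list of 12 higher and 5 lower.

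FOXO-driven and insulin-repressed genes were higher in 13 of 19 genes in lung, 8 of them without overlap, with a median of 0.19, 0 passing the adjusted test in limma and 7 unadjusted, where 19.3% and 12.6% of all lung genes were without overlap and unadjusted. Foxo3, one of the factors, had means of 19.2 and 27.2 TPM, Trib1, a pseudokinase, 14.9 and 20.4 TPM, and Bcl6, a transcriptional repressor, 14.4 and 20.2 TPM. In liver the list split into 9 higher and 10 lower. Pck1, the enzyme that starts gluconeogenesis from oxaloacetate, read 856, 832 and 1007 TPM in vehicle and 1365, 1595 and 1839.8 TPM with RECTAS (1.78-fold), Klf15, a fasting-induced factor, had means of 76.1 and 117 TPM, and Sesn3, a sestrin, 5.95 and 4.45 TPM. Cited2 in colon had means of 50.1 and 38.6 TPM without overlap. The list shares genes with the glucocorticoid response, the MondoA and ChREBP, and the cargo lists, so these lists are not independent of each other.

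Glucocorticoid response genes had the highest median of the pathway lists in lung and in liver. In lung 18 of 20 were higher and 2 lower, with a median of 0.71 against 0.058. All 14 without overlap were higher (19.3% of all lung genes did not overlap in either direction), 0 passed the adjusted test in limma, and 14 had an unadjusted p under 0.05 (12.6% of all lung genes). Rhob, a small GTPase, had means of 109.8 and 214 TPM, Map3k6, a stress-activated kinase, 13.7 and 26.9 TPM, and Nfkbia, an inhibitor of NF-kappaB, 136 and 229 TPM. In liver 15 of 19 were higher and 4 lower, with a median of 0.44. Of these, 7 were higher and 2 lower without overlap (18.7% of all liver genes), 8 had an unadjusted p under 0.05 (11.6%), and 1, Ddit4, passed the adjusted test (0.0167%). Ddit4, an inhibitor of mTORC1, rose from 2.52, 4.43 and 3.67 TPM to 22.2, 24.2 and 19.7 TPM (6.23-fold). Tsc22d3, known as GILZ, had means of 45.6 and 142 TPM and Cdkn1a, which encodes the cell-cycle inhibitor p21, 1.88 and 4.62 TPM. Colon had 11 higher and 8 lower with a median of 0.055, where Sgk1, a kinase induced by corticosteroids, read 68.5, 127 and 164 TPM in vehicle and 186, 185 and 346 TPM with RECTAS. Cebpd, a transcription factor, had means of 3.69 and 5.48 TPM there, and Dusp1, a phosphatase, 19.5 and 16.8 TPM. The list was assembled with earlier results of these data known, so its direction is not independent evidence.

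**Figure D5:**
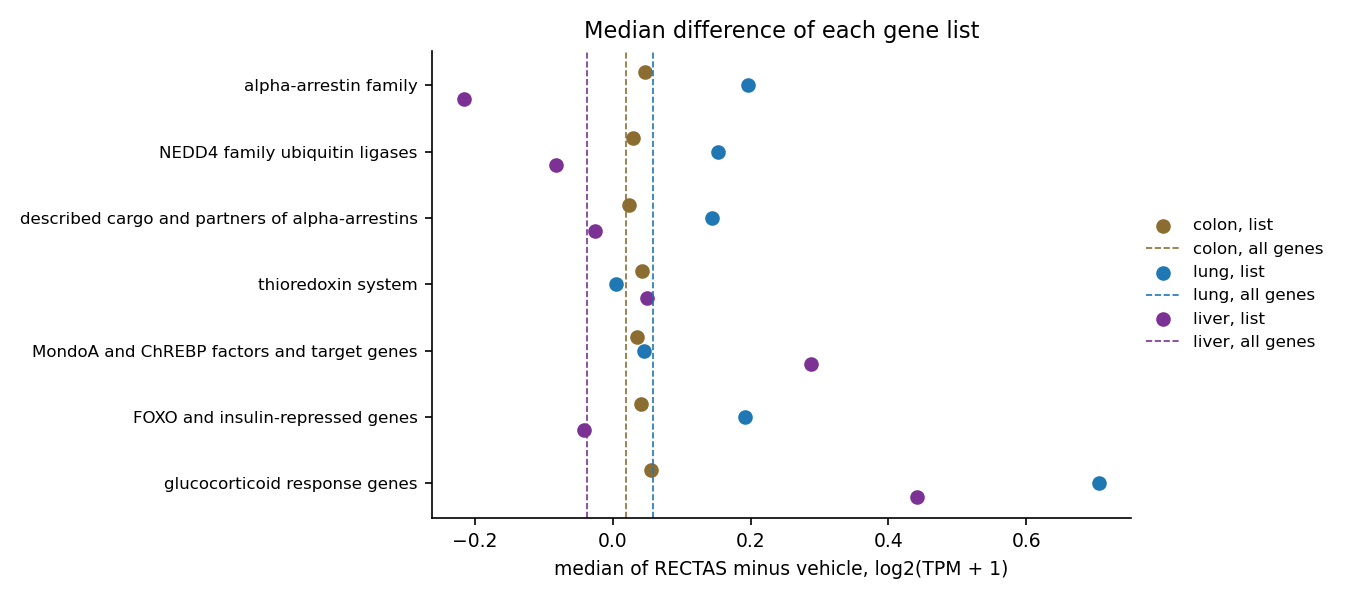
Median over each gene list of the difference between RECTAS and vehicle, in log2(TPM + 1), in colon, lung and liver (points), with the median of all genes tested in that tissue as a dashed line. The glucocorticoid response list lies at 0.71 in lung and 0.44 in liver, and the family at -0.22 in liver.

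The genes most like each member were ranked by Pearson's r over the 18 libraries of log2(TPM + 1) after removing each tissue's mean, among 6518 genes, and the r values are a description of libraries that share treatment groups. Arrdc2 was most like Ddit4 (r = 0.91), Chd9, a chromatin remodeller (0.88), and Psmd11, a proteasome subunit (0.85). Within colon alone the r of Arrdc2 with Ddit4 was -0.43, against 0.93 in lung and 0.97 in liver. Ddit4 in lung read 16.3, 21.96 and 30.9 TPM in vehicle and 52.1, 63.6 and 42.1 TPM with RECTAS, and its libraries took the order of those of Arrdc2 under RECTAS but not in vehicle. In RECTAS liver their orders also differed, with Ddit4 lowest and Arrdc2 in the middle in replicate 3.

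Txnip was most like Fam129b (0.87), S100pbp (0.86) and Ubr7 (0.85), and its r with Fam129b was 0.96 in liver and -0.11 in colon. Fam129b had liver means of 6.16 TPM in vehicle and 3.87 TPM with RECTAS. Arrdc3 was most like Gas1, a growth-arrest membrane protein (0.93), Rbm39, a splicing factor (0.90), and Tprkb (0.89). Its r with Rbm39 was 0.95 within colon and 0.98 within liver but 0.14 within lung. Gas1 in liver read 11.2, 6.66 and 3.71 TPM in vehicle and 6.08, 2.63 and 3.38 TPM with RECTAS, and vehicle replicate 1 was highest for both Gas1 and Arrdc3. Arrdc1 was most like Pabpn1, a nuclear poly(A)-binding protein (0.82), Rps9 (0.80) and Coq10a (0.79), and Arrdc4 like Abraxas2 (0.78), Ankfy1 (0.78) and Cnot6 (0.77). Within colon, lung and liver, the r of Arrdc4 was 0.23, 0.33 and 0.97 with Abraxas2 and 0.74, -0.075 and 0.92 with Cnot6. Over 18 libraries, the highest r was lower for Arrdc1 and Arrdc4, whose RECTAS groups overlapped vehicle in every tissue, than for the other members.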

How the data were processed

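RNA-seq of 18 libraries was analysed, 3 in each of 6 groups taken from the labels. Total RNA was extracted with TRIzol and made into stranded mRNA libraries, per the labels' protocols. Per the submitters' processing notes HISAT2 2.2.0, RSEM 1.3.0 and GRCm38 were used, and the values the authors deposited are TPM per gene identifier, so no counts or depth were at hand and no count model was used. Symbols and positions came from GENCODE M21, which matched 55141 of 55401 identifiers, and promoter sequences from RefSeq (GRCm38.p6).

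TPM were compared as log2(TPM + 1), a scale on which fold changes of low genes are understated, over genes of at least 1 TPM in at least 3 libraries of the fit. limma 3.58.1 (R 4.3.3) with a trended variance and Benjamini-Hochberg adjustment over all genes at 0.05 was fitted for RECTAS against vehicle in each tissue (6 libraries), for tissues among the 9 vehicle libraries, and for the difference of RECTAS effects between tissues (18 libraries). The code was tested on simulated data. Members and lists were chosen with earlier results of these data known. Beyond the members, the text names per list and tissue up to 3 genes of smallest unadjusted p among those without overlap, and the 3 genes most correlated with each member; 1 gene that this rule picks is not reported here. Marker lists of smooth muscle, endothelium, hepatocytes, colonocytes, goblet cells, alveolar type 2 cells, adipocytes, muscle, erythroid cells and lymphocytes were read as summed TPM. Other settings tried were a pseudocount of 0.1 or of 5 TPM, a filter of 5 TPM or none, median ratio scaling, quantile normalisation, rescaling without mitochondrial and the 20 highest genes, robust variance, a replicate block, 1 fit of all 18 libraries, and leaving out each library.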

Additional observations from a re-analysis of the deposited data

Results flagged for a closer look

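The RECTAS effect on Txnip differed between tissues, with liver below colon by -1.15 and below lung by -1.20 on the log2 scale, and was listed for a closer look because both differences met the adjusted threshold of limma's interaction test. Txnip was lower in all 3 liver RECTAS libraries than in any liver vehicle library and higher in all 3 colon RECTAS libraries than in any colon vehicle library. The colon difference was small, at 0.15 (95% interval -0.044 to 0.35) or 1.11-fold. Groups did not overlap for 18.7% of all liver genes and 5.44% of all colon genes. The RECTAS effect on Arrdc2 was higher in liver than in colon by 1.85, listed for the same reason, with higher values in 3 of 3 liver RECTAS libraries. The family was chosen with these differences in view, so meeting the threshold is no support for them, and both Txnip calls were lost in most fits that left out 1 library.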

How the results depend on the processing

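The values for Txnip and Arrdc2 with RECTAS in liver kept their direction under all 16 alternatives each. The number of members called for RECTAS against vehicle in liver went from 0 to 1 (Arrdc2) with a filter of 5 TPM, with rescaling and with robust variance, and to 2 in 1 fit of all 18 libraries. Calls over all genes rose there too, from 2 to 7, 8, 6 and 94 in that order. For the RECTAS effect in liver against colon the members called went from 2 to 1 (Arrdc2) with a pseudocount of 0.1 TPM, no filter, median ratio scaling or quantile normalisation. Calls over all genes went from 5 to 1, 13, 4 and 1 in that order. With 1 library left out, the members called ranged from 0 to 2. For liver against lung they went from 1 to 0 with a pseudocount of 0.1 TPM, a filter of 5 TPM, median ratio scaling, quantile normalisation or rescaling, and ranged from 0 to 1 with 1 library left out. In each of these settings calls over all genes went from 4 to 0. Among vehicle tissues 5 members in place of 3 passed in lung against colon after median ratio scaling, where 12159 genes passed, against 12654 in the main fit. Of the tissue differences past the threshold in the main fit, Arrdc2 in liver against colon turned sign with median ratio scaling (0.052) but was then not past it. In liver against lung, Arrdc2 (0.39 with median ratio scaling, 0.33 with quantile normalisation) turned sign and was past the threshold under both. Arrdc4 (0.25 and 0.22) turned sign there but was not past the threshold under either. Differences not past it in the main fit also turned sign with median ratio scaling. They were Arrdc1 (-0.34) and Arrdc2 (-0.33) in lung against colon and Arrdc3 (0.40) in liver against lung. Of these, quantile normalisation turned Arrdc2 alone (-0.34). The cause was not tested. Same-numbered vehicle and RECTAS libraries did not deviate together in every pair (correlations of 0.35, -0.35 and 0.0045 in colon, 0.49, -0.0076 and 0.46 in lung, 0.015, -0.015 and -0.013 in liver). Same-numbered libraries of 2 tissues under 1 treatment gave -0.085 to 0.12. The labels do not pair the libraries, so the numbers were not taken as pairs in the main fits. These values do not settle whether same-numbered libraries are linked, in lung above all. With the replicate block 1 member (Arrdc2) in place of 2 passed in liver against colon and 0 in place of 1 in liver against lung, and the members called for RECTAS in any tissue stayed at 0. TPM hold no depth, and 3 libraries per group limit the precision.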
